A study of Saccharomyces cerevisiae with 8 samples.

Results

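The genes described here encode the factors that carry a ribosome through initiation, elongation and termination of protein synthesis in budding yeast, with a few regulators of those steps. They were chosen by name: 42 genes of the 6225 systematic names on the array, namely 29 initiation genes, 10 elongation genes, 2 termination genes and STM1, a ribosome-bound regulator. All 42 were found on the array, each with a single probe printed as 2 spots, and all 42 passed the filter on dim probes.

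Initiation joins an mRNA to the small ribosomal subunit. The cap-binding complex eIF4F prepares the mRNA, eIF2 brings the initiator tRNA, eIF2B recharges eIF2 with GTP, and eIF3 with the scanning factors leads the subunit to the start codon. In elongation, eEF1A delivers each aminoacyl-tRNA, eEF1B recharges eEF1A, and eEF2 moves the ribosome along the mRNA, while eEF3 is an additional elongation factor that fungi need and animals lack. Mutations and nutrient signals that act on these factors set the rate of protein synthesis, and yeast growing fast devotes a large share of its transcripts to them and to ribosomal proteins.

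Transcripts were measured on 8 Agilent 2-colour arrays of S288C, the laboratory strain of Saccharomyces cerevisiae whose genome is the reference sequence. On each array, Cy5 carried RNA of exponentially growing cells taken at 16, 17, 19, 20, 21, 22, 23 or 24 h, and Cy3 carried RNA of cells aged 64 h. Per the labels, the cells grew as a batch culture in minimal medium, total RNA was used in both channels, and no genetic change or drug is named for either. The 64 h cells have the same description on all arrays; whether a single extract was used is not stated, and they are treated here as 1 sample, so the tests leave out any spread of their own. The dyes were never swapped, so a dye effect and a difference between the cells cannot be told apart in a mean ratio. Separate cultures are not named in the labels for the 8 samples, and p-values therefore speak of the spread between arrays alone, which may be technical. In RNA from a whole culture, fewer cells that make a transcript and less of it per cell cannot be told apart.

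Each array held 12512 gene spots, of which 84.1% to 91.6% cleared the scanner's background test in the growing-cell channel and 89.5% to 91.1% in the 64 h channel. The hexose transporter gene HXT2 had a mean log2 ratio of growing over 64 h cells of 5.90, against -6.11 for the alcohol dehydrogenase gene ADH2 and -4.18 for the stress gene HSP12, with Cy3 saturated on 6 arrays for ADH2 and on 3 for HSP12. HXT5, another transporter, was saturated in the 64 h channel on all 8 arrays. The arrays lay on 2 slides, slide 2 with those recorded at 17, 20 and 21 h and slide 1 with the other 5, and each slide had its own scan. Scanner log ratios, centred per gene on the mean within each slide, were correlated with the columns of the authors' deposited table. The scanner file recorded for 20 h correlated at 0.97 with the 24 h column of that table and at -0.49 with the 20 h column. For the 24 h file the correlations, across 5582 genes, were 0.93 with the 20 h column and -0.39 with its own. The other 6 files matched their own columns best, so results on time are given with and without these 2 arrays.

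The most abundant factor transcripts exceeded the range of the scanner. Of the 42 genes, 11 had a saturated spot on at least 1 array, and 8 of those 11 were elongation genes. A gene is called saturated on an array when at least 1 of its 2 spots was. In all, 7 genes were saturated on all 8 arrays in at least 1 channel, 16.7% of the 42, against 2.39% of the 5650 genes tested. They were TIF1 and TIF2, the pair of genes for the eIF4A helicase, TEF1 and TEF2 for eEF1A, EFT1 and EFT2 for eEF2, and HYP2 for eIF5A, which helps ribosomes through difficult peptide bonds. The paralogues of each of these pairs are nearly identical in sequence, so their probes may share signal.

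For TEF1, TEF2 and EFT1, Cy5 from growing cells and Cy3 from 64 h cells were both saturated on all 8 arrays. EFT2 and HYP2 were saturated on 8 arrays in Cy5 and on 7 in Cy3, TIF1 on 8 and 5, and TIF2 on 8 and 1. Their clipped ratios give no fold, in either direction, so no mean ratio is given for these 7 genes. The other 35 genes were measured on at least 1 array in both channels. Among them, Cy5 was saturated on 7 arrays for EFB1, 7 for TEF4, 6 for YEF3 and 2 for STM1, which clips the growing cells' level on those arrays, and Cy3 was saturated on none.

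**Figure D1:**
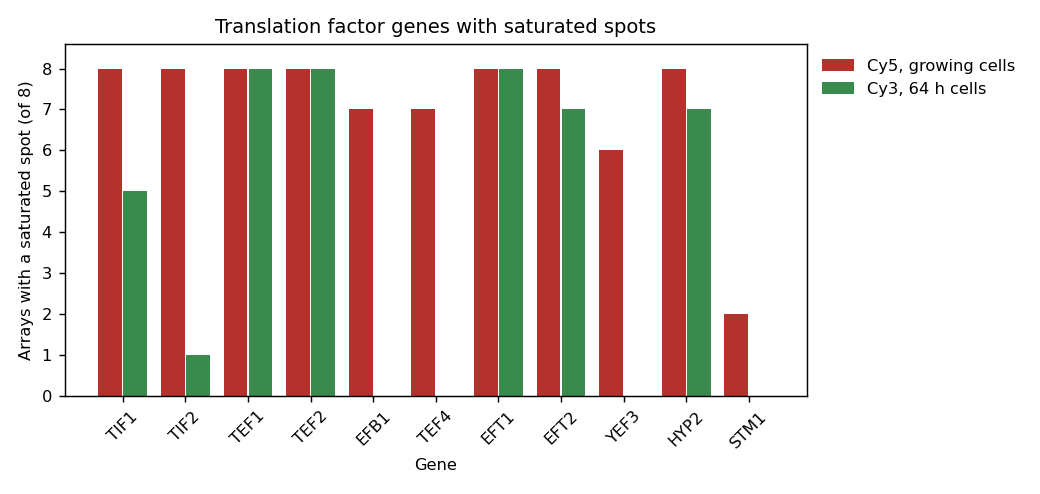
Number of arrays, of 8, on which at least 1 of a gene's 2 spots was saturated, for the 11 factor genes with any saturation (red, Cy5 from growing cells; green, Cy3 from 64 h cells). TEF1, TEF2 and EFT1 stand at 8 in both channels, and EFB1, TEF4, YEF3 and STM1 were saturated in Cy5 alone.

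Most of the factor genes that could be measured had more transcript in growing cells than in 64 h cells, relative to the rest of the array. Of 35, 29 were higher in growing cells, 4 were lower, and 2 did not pass the test (limma, adjusted p under 0.05). Among the 5515 genes measured the same way, 40.5% were higher and 42.2% were lower. The mean log2 ratios of the 35 genes ran between -1.87 and 1.10 with a median of 0.53, against a median of -0.01 for all genes. Most differences were under 2-fold: 2 genes, TIF5 and SUI3, were at least 2-fold higher in growing cells and 2, DBP1 and HEF3, at least 2-fold lower, where 4.68% and 10.1% of all genes were. The first of these counts depends on the scaling: 10 members were at least 2-fold higher when ratios were centred on the array median in place of loess (7.51% of all genes), and 3 with the scanner's own ratio (7.80%), while the same 2 genes were at least 2-fold lower under both. TEF4, at 0.95, is clipped on 7 arrays and its unsaturated spots averaged 1.02.

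Array by array, 27 of the 35 genes had a log2 ratio above 0 on all 8 arrays and 3 had a ratio below 0 on all 8, against 31.6% and 35.4% of all genes. The log2 levels of growing cells all lay above those of 64 h cells for 20 genes and all below for 2, and the levels overlapped for 13. The matching shares of all genes were 20.7% and 25.4%. Initiation genes had 23 higher, 2 lower and 2 not called of 27 measured, with a median log2 ratio of 0.53. Elongation genes had 3 higher and 2 lower of 5 measured (median 0.26), and both termination genes were higher (median 0.50). The elongation count leaves out 5 of the 10 genes, those saturated on all 8 arrays. Its median is the value of EFB1, which was clipped in Cy5 on 7 arrays and averaged 0.05 to 1.04 under the other scalings, so it is not set against the initiation median.

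**Figure D2:**
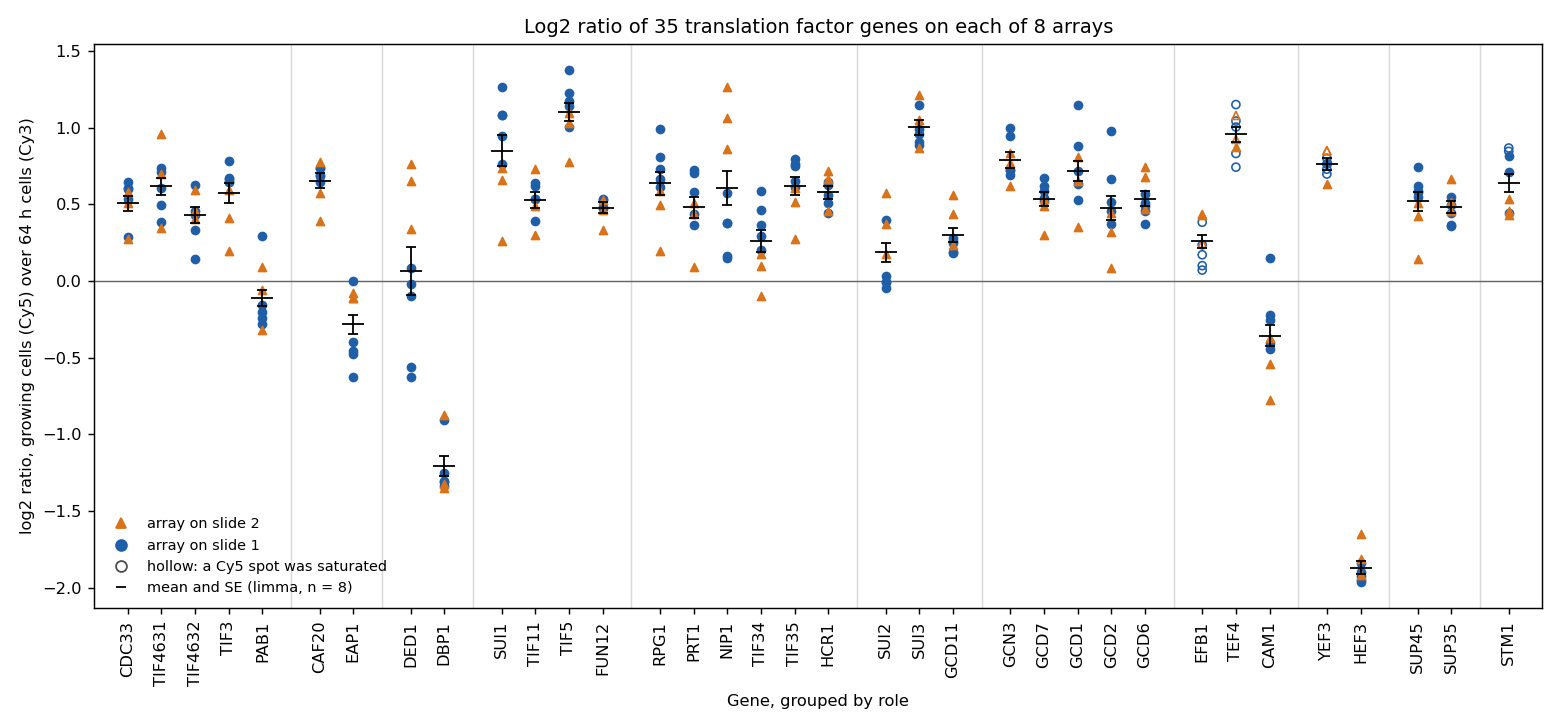
Log2 ratio of growing cells (Cy5) over 64 h cells (Cy3) of the 35 measured factor genes on each of the 8 arrays, grouped by role (triangles, slide 2; circles, slide 1; hollow, Cy5 saturated; bars, mean and SE). The means lie between -1.87 for HEF3 and 1.10 for TIF5, and 29 of the 35 passed the test above 0.

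The measured members of the cap complex were mostly higher in growing cells. CDC33 encodes eIF4E, the protein that binds the mRNA cap. Its log2 ratio had a lowest value of 0.28, a median of 0.56 and a highest value of 0.64 over the 8 arrays, and its mean was 0.50 ± 0.05 (SE, n = 8). Its log2 levels ran between 13.21 and 13.69 in growing cells and between 12.77 and 13.05 in 64 h cells, with no overlap. TIF4631 and TIF4632 encode the alternative eIF4G scaffolds, on which the complex assembles, and averaged 0.62 ± 0.06 and 0.43 ± 0.05. TIF3, the gene for eIF4B, a partner of the helicase, averaged 0.58 ± 0.07. These 4 genes were above 0 on all 8 arrays.

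PAB1 differed from them. It encodes the poly(A)-binding protein, which holds the tail of the mRNA and contacts eIF4G. Its log2 ratio had a lowest value of -0.32, a median of -0.18 and a highest value of 0.29, and its mean of -0.11 ± 0.05 did not pass the test (limma, adjusted p = 0.071). The arrays recorded at 16 h and 17 h lay above 0 and the other 6 below. Without the 16 h array the mean was -0.17 and passed (adjusted p = 0.013). With median centring PAB1 averaged 0.47 and was called higher (adjusted p = 3.3e-05), so its direction depends on the scaling.

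The pair of eIF4E-binding repressors went opposite ways. Caf20 and Eap1 both compete with eIF4G for eIF4E. CAF20 had a lowest log2 ratio of 0.39, a median of 0.69 and a highest of 0.77, with growing cells above 64 h cells on every array and a mean of 0.65 ± 0.05 (adjusted p = 1.1e-06). EAP1 had a lowest ratio of -0.63, a median of -0.25 and a highest of -0.00, with a mean of -0.28 ± 0.06 (adjusted p = 0.0018). CAF20 exceeded EAP1 in log2 ratio on 8 of 8 arrays, by 0.94 on average. EAP1 was below 0 on all arrays, but close to it on the highest.

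DED1 and DBP1 encode paralogous DEAD-box helicases that unwind mRNA leaders during scanning. DBP1 was lower in growing cells: its log2 levels ran between 7.90 and 8.38 in growing cells and between 9.23 and 9.35 in 64 h cells, with growing cells well above background on 7 arrays and 64 h cells on 8. Its log2 ratio had a lowest value of -1.35, a median of -1.30 and a highest of -0.87, for a mean of -1.21 ± 0.07, or 2.31-fold more in 64 h cells (adjusted p = 1.7e-07). DED1 had a lowest ratio of -0.63, a median of 0.03 and a highest of 0.76, and its mean of 0.07 ± 0.16 had the largest SE of the 35 genes (adjusted p = 0.70). Its arrays separated by slide.

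All 4 scanning and start codon factors were higher in growing cells. TIF5 encodes eIF5, which triggers GTP hydrolysis by eIF2 at the start codon. Its log2 levels ran between 10.44 and 11.04 in growing cells and between 9.40 and 9.67 in 64 h cells. The ratio had a lowest value of 0.77, a median of 1.12 and a highest of 1.38, with a mean of 1.10 ± 0.06, or 2.15-fold (adjusted p = 1.4e-07). This was the highest mean of the 35 with loess and with the scanner's ratio, but not with median centring, where TIF5 averaged 1.03 and TIF3 and the clipped TEF4 averaged 1.16 and 1.70. SUI1, the gene for eIF1, which guards start codon choice, had a lowest ratio of 0.26, a median of 0.85 and a highest of 1.27 (mean 0.85 ± 0.10). TIF11, for eIF1A, averaged 0.53 ± 0.05, and FUN12, for the subunit-joining GTPase eIF5B, averaged 0.48 ± 0.04. All 4 genes were above 0 on every array, and FUN12 varied least, with an SD of 0.07.

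All 6 eIF3 genes were higher in growing cells, with means between 0.26 and 0.64. eIF3 is a large scaffold on the small subunit that gathers the other factors. RPG1 (the a subunit) averaged 0.64 ± 0.08, TIF35 (g) 0.62 ± 0.06, NIP1 (c) 0.60 ± 0.11, HCR1 (j, a loosely bound subunit) 0.58 ± 0.04 and PRT1 (b) 0.48 ± 0.07. TIF34 (i) averaged 0.26 ± 0.07 (adjusted p = 0.0080) and lay below 0 on the array recorded at 20 h, at -0.10. The order of the 6 depends on the scaling: with median centring TIF34 averaged 0.80 and RPG1 0.57. NIP1 had the widest range, with a lowest ratio of 0.15, a median of 0.48 and a highest of 1.27, and, as with DED1, its arrays separated by slide. The arrays of RPG1, TIF34 and TIF35 also separated by slide, but with slide 2 the lower, opposite to NIP1.

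The 3 genes of the eIF2 trimer were called higher to different degrees. SUI3, for the beta subunit, had log2 levels between 12.29 and 12.97 in growing cells and between 11.38 and 11.75 in 64 h cells. Its ratio had a lowest value of 0.87, a median of 0.97 and a highest of 1.21, with a mean of 1.00 ± 0.05, or 2.00-fold (adjusted p = 6.3e-08). GCD11, for the GTP-binding gamma subunit, averaged 0.30 ± 0.05, with no array under 0.18. SUI2, for the alpha subunit that the stress kinase Gcn2 phosphorylates, had a lowest ratio of -0.04, a median of 0.10 and a highest of 0.58, and a mean of 0.19 ± 0.06 (adjusted p = 0.017). The SUI2 call was lost without the 16 h array (adjusted p = 0.061) and without the 17 h array (adjusted p = 0.076). SUI3 exceeded both other subunits in log2 ratio on 8 of 8 arrays.

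All 5 genes of eIF2B, the exchange factor that phosphorylated eIF2 inhibits, were higher in growing cells and above 0 on every array. GCN3, the regulatory alpha subunit, averaged 0.79 ± 0.05. Its log2 levels ran between 10.72 and 11.11 in growing cells and between 10.01 and 10.34 in 64 h cells, without overlap. GCD1 (gamma) averaged 0.71 ± 0.07, GCD7 (beta) 0.53 ± 0.05, GCD6 (the catalytic epsilon subunit) 0.53 ± 0.05 and GCD2 (delta) 0.48 ± 0.08. The 5 means lay between 0.48 and 0.79, and those of the eIF2 trimer between 0.19 and 1.00; the difference between these spreads was not tested.

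Among the elongation genes, eEF1B and eEF3 could be compared. TEF4 and CAM1 are paralogues for the eEF1B gamma subunit. TEF4 had a lowest log2 ratio of 0.74, a median of 0.96 and a highest of 1.15, and was higher in growing cells (mean 0.95 ± 0.05). CAM1 had a lowest ratio of -0.77, a median of -0.39 and a highest of 0.15, and was lower (mean -0.36 ± 0.07, adjusted p = 0.00086), with the 23 h array alone above 0. With median centring CAM1 averaged 0.30 and was called higher (adjusted p = 0.0020), so its direction also depends on the scaling. EFB1, for the catalytic alpha subunit, averaged 0.26 ± 0.04, but 0.05 with the scanner's own ratio, which did not pass (adjusted p = 0.38), and 1.04 with median centring. EFB1 is among the genes with clipped Cy5, and over the 4 arrays with unsaturated spots those spots averaged 0.43.

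HEF3 and YEF3 encode the eEF3 isoforms, of which YEF3 is the essential gene. YEF3 had a lowest log2 ratio of 0.64, a median of 0.77 and a highest of 0.85, and was higher in growing cells (mean 0.76 ± 0.04). HEF3 had the lowest mean of the 35 genes. Its log2 levels ran between 8.10 and 8.87 in growing cells and between 10.06 and 10.57 in 64 h cells. The ratio had a lowest value of -1.96 and a highest of -1.65, with a mean of -1.87 ± 0.04, or 3.65-fold more in 64 h cells (adjusted p = 7.5e-10). The levels of HEF3 did not overlap between growing and 64 h cells.

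Both termination genes were higher in growing cells. SUP45 encodes eRF1, which reads stop codons, and averaged 0.52 ± 0.06, with a lowest ratio of 0.14 and a highest of 0.74. SUP35 encodes eRF3, its GTPase partner, known also as a prion protein, and averaged 0.48 ± 0.04, with a lowest ratio of 0.36 and a highest of 0.67. STM1, whose product associates with ribosomes and helps preserve them when nutrients run out, was likewise higher in growing cells (mean 0.64 ± 0.06, lowest 0.43, highest 0.87).

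The scaling moved the sizes more than the count. With median centring, 31 of the 35 genes were higher and 3 lower, where 40.1% and 41.0% of all genes were. The median of the 35 means was 0.80, against 0.00 for all genes. With the scanner's ratio, 28 were higher and 4 lower, where 45.3% and 38.6% of all genes were, with a median of 0.62 against 0.06. PAB1 and CAM1 were the only members whose direction turned under any of the scalings run.

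Paralogues were then compared within each array, by the difference between their log2 ratios. Of 8 pairs, 4 could be tested, and the other 4 (TIF1 and TIF2, TEF1 and TEF2, EFT1 and EFT2, HYP2 and ANB1) had a gene saturated on all 8 arrays. YEF3 exceeded HEF3 by 2.63 on average (SD 0.15, n = 8), or 6.19-fold in the ratio, with differences between 2.28 and 2.76. TEF4 exceeded CAM1 by 1.31 (SD 0.36), with differences between 0.59 and 1.70. DED1 exceeded DBP1 by 1.27 (SD 0.54), with differences between 0.71 and 2.11.

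In these 3 pairs the first gene was above the second on 8 of 8 arrays, and each had an exact two-sided sign-flip permutation p of 0.0078, the smallest that 8 arrays allow (adjusted over the 4 pairs, 0.010). TIF4631 exceeded TIF4632 on 6 of 8 arrays, by 0.19 (SD 0.30), and this did not pass the exact permutation test (p = 0.13). With median centring the difference between the eIF4G genes was 0.53 and passed it (exact p = 0.0078). Because Cy5 of TEF4 and YEF3 was clipped on 7 and 6 arrays, their ratios on those arrays are clipped from above. The unsaturated spots of TEF4 averaged 1.02 over 2 arrays and those of YEF3 averaged 0.79 over 3 arrays.

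**Figure D3:**
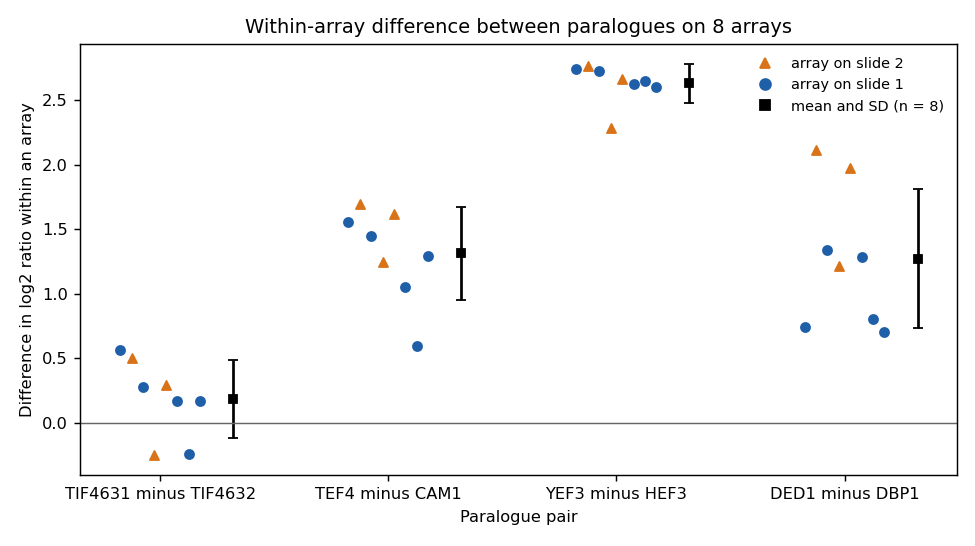
Difference in log2 ratio between paralogues within each array (triangles, slide 2; circles, slide 1), with the mean and SD over 8 arrays. YEF3 minus HEF3 lies between 2.28 and 2.76, TEF4 minus CAM1 and DED1 minus DBP1 lie above 0 on all arrays, and TIF4631 minus TIF4632 lies on both sides of 0.

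Some factor genes gave different ratios on the 2 slides. The slide term of the fit with slide as a block was tested, a choice made after seeing the data, and 4 of the 35 genes passed this test of slide 2 minus slide 1. NIP1 and DED1 were higher on slide 2, where 4.70% of all genes were, and SUI1 and GCD2 were lower, where 2.45% were. NIP1 averaged 1.06 on slide 2 and 0.33 on slide 1 (fitted difference 0.66 ± 0.09, adjusted p = 0.008). DED1 averaged 0.59 on slide 2 and -0.24 on slide 1 (fitted difference 0.82 ± 0.20, adjusted p = 0.048). The ranges did not overlap for either gene. Nor did they for SUI1, TIF3, RPG1, TIF34, TIF35 and SUP45, all lower on slide 2, of which SUI1 alone passed the test.

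For DED1 the Cy3 level separated by slide and the Cy5 level did not. Its mean log2 level in growing cells was 11.74 on slide 2 and 11.78 on slide 1, and in 64 h cells it was 11.15 on slide 2 and 12.02 on slide 1. For NIP1 the levels were 11.77 on slide 2 and 11.47 on slide 1 in growing cells, and 10.70 on slide 2 and 11.14 on slide 1 in 64 h cells. For both genes the Cy3 levels of the 2 slides did not overlap, although the labels describe the 64 h cells alike on all arrays. This was not particular to DED1 and NIP1. Cy3 levels also did not overlap between slides for genes without a slide call, among them EAP1 and HEF3. The Cy3 level of EAP1 averaged 10.99 on slide 2 and 11.30 on slide 1, and that of HEF3 10.51 and 10.16. SUI1 averaged 0.55 on slide 2 and 1.03 on slide 1 (fitted difference -0.54 ± 0.13, adjusted p = 0.043), with its Cy3 level at 11.18 on slide 2 and 11.10 on slide 1. GCD2 averaged 0.28 on slide 2 and 0.60 on slide 1 (fitted difference -0.41 ± 0.10, adjusted p = 0.042).

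Within slide 2 (3 arrays), 22 of the 35 genes were higher in growing cells and 3 lower, and within slide 1 (5 arrays), 28 were higher and 4 lower. Of all genes, 22.0% were higher and 26.0% lower within slide 2, and 40.1% and 42.4% within slide 1. TIF34 was not called within slide 2 (0.06, adjusted p = 0.65), nor were EAP1 (-0.10, adjusted p = 0.39) and GCD2 (adjusted p = 0.11). DED1 was the exception in sign: of the 35 genes, 34 had the same sign on both slides. Within slide 2 it was called higher in growing cells (adjusted p = 0.030), and within slide 1 its mean did not pass (adjusted p = 0.085). SUI2 was called on neither, with 0.37 on slide 2 (adjusted p = 0.059) and 0.08 on slide 1 (adjusted p = 0.26). The difference between DED1 and DBP1 averaged 1.77 on slide 2 and 0.98 on slide 1. Arrays within 1 slide are too few for the exact test to reach 0.05, the smallest p being 0.25 for 3 arrays and 0.0625 for 5.

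**Figure D4:**
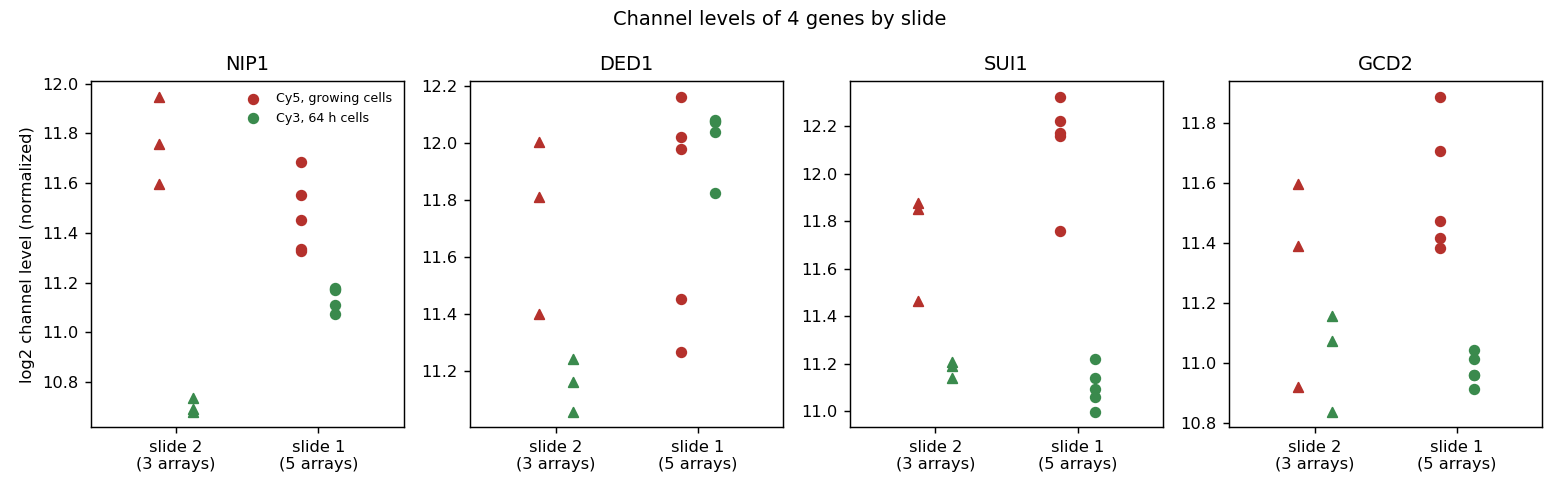
Normalised log2 level on each array of the 4 factor genes that differed between the slides (red, Cy5 from growing cells; green, Cy3 from 64 h cells; triangles, slide 2; circles, slide 1); each panel has its own vertical axis. The 64 h level of DED1 averaged 11.15 on slide 2 and 12.02 on slide 1, while its growing-cell levels overlapped between the slides.

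Over the 8 h of sampling, no factor gene rose or fell by the test on the 8 arrays as recorded, and neither did any of the 5544 genes fitted (0% rising and 0% falling, limma). The smallest adjusted p among the 35 genes was 0.71, and 5 of the 35 had an unadjusted p under 0.05, against 373 of all genes (6.73%). Of the 35 slopes, 26 were below 0, where 47.5% of all genes were, with a median of -0.02 per h.

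On the 6 arrays whose files match their own columns, 1 of the 35 genes fell and 0 rose, where 3.21% of all genes fell and 5.28% rose. The gene was GCD1, the eIF2B gamma subunit, whose log2 ratio fell by 0.07 ± 0.02 per h (adjusted p = 0.046). PAB1 had the same slope, -0.07 ± 0.02 per h, and did not pass (adjusted p = 0.054). Again 26 of 35 slopes were below 0, against 47.7% of all genes, and 7 of the 35 had an unadjusted p under 0.05, where 25.4% of all genes did. The GCD1 call was lost when the array of 16, 19, 21, 22 or 23 h was left out in turn (slopes between -0.07 and -0.05) and with median centring (adjusted p = 0.13).

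With slide as a block on these 6 arrays, 5 genes fell (9.20% of all genes did) and 1 rose (12.1% did). The falling genes were GCD1 at -0.08 per h (adjusted p = 0.006), GCD2 at -0.07 (adjusted p = 0.009), PAB1 at -0.07 (adjusted p = 0.02), SUI1 at -0.06 (adjusted p = 0.029) and NIP1 at -0.05 (adjusted p = 0.044). CAM1 rose by 0.07 per h (adjusted p = 0.037). With the 20 h and 24 h files exchanged, 5 genes fell, TIF4631, PAB1, PRT1, GCD1 and GCD2, and 0 rose, where 8.73% and 10.7% of all genes did, and 28 of 35 slopes were below 0, against 46.3% of all genes. GCD1, GCD2 and PAB1 were called in both of these fits. In the authors' deposited table, a line fitted to its 8 columns called 18 of the 35 genes falling and 1, DBP1, rising, where 18.0% and 16.2% of all genes were. On the 6 columns not in dispute it called 7 falling and 0 rising, where 9.38% and 8.10% of all genes were.

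**Figure D5:**
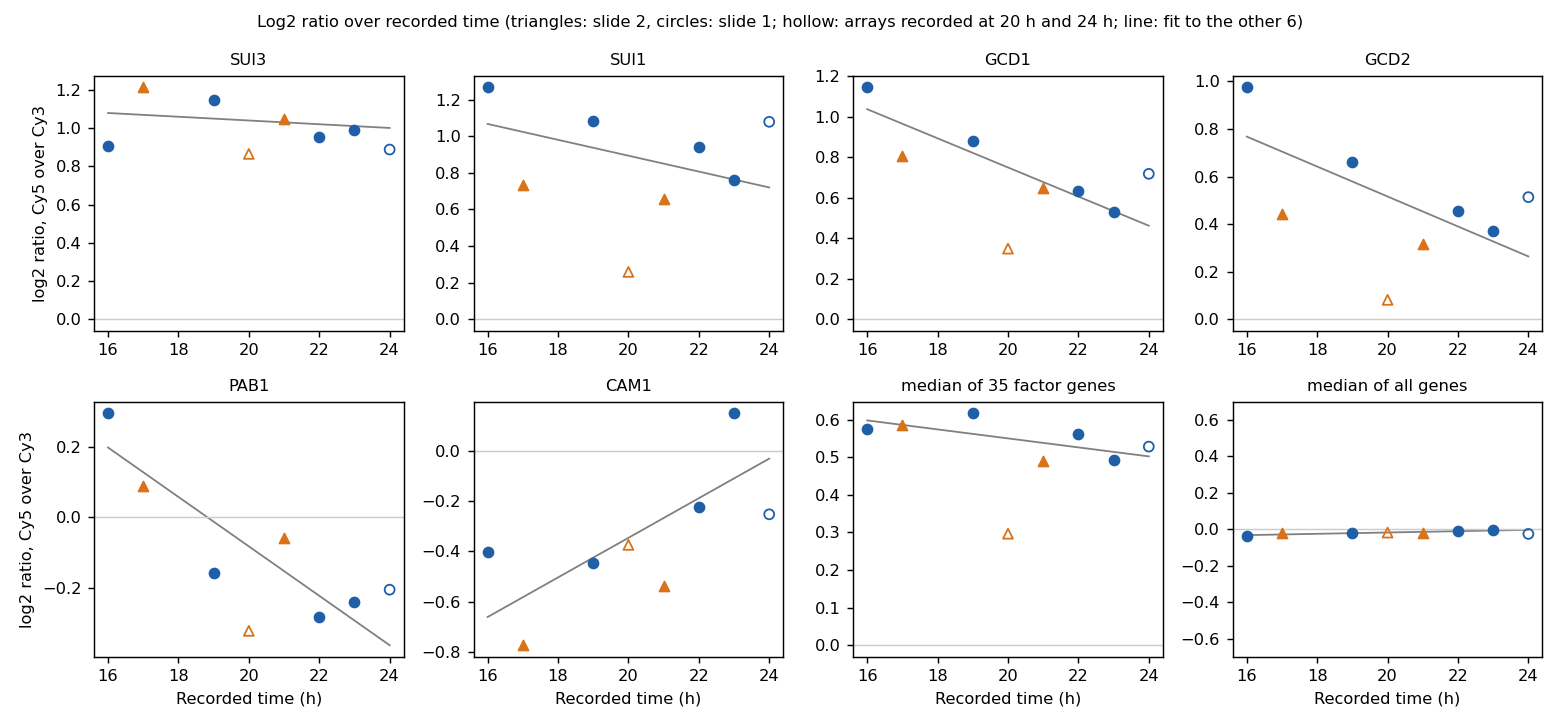
Log2 ratio of growing over 64 h cells against recorded time in h for 6 factor genes and for the median of the 35 factor genes and of all genes (triangles, slide 2; circles, slide 1; hollow, arrays recorded at 20 h and 24 h; line, fit to the other 6 arrays); each panel has its own vertical axis. GCD1 and PAB1 had slopes of -0.07 per h on the 6 arrays, of which that of GCD1 passed the test. The median of all genes lay near 0 throughout, where the loess scaling places it.

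Other genes of protein synthesis outside the 42 were measured on the same arrays: 53 genes for factor-modifying enzymes, recycling, quality control, mRNA-bound regulators and mitochondrial factors. Of the 53, 34 were higher in growing cells, 11 were lower and 8 did not pass, with a median log2 ratio of 0.34, between the 0.53 of the factor genes and the -0.01 of all genes. The shares of all genes were 40.5% higher and 42.2% lower. Among enzymes that modify the factors, those called higher were DYS1 and LIA1, which make hypusine on eIF5A, 5 of 6 diphthamide genes, which modify eEF2, and 5 of 7 factor methyltransferase genes. DYS1, deoxyhypusine synthase, averaged 1.45 ± 0.06, and EFM7, an eEF1A methyltransferase, 1.58 ± 0.05. ANB1, the eIF5A isoform made in low oxygen, is among the 34, but was well above background on 5 arrays in growing cells and on 0 in 64 h cells, so its level was only bounded, at least 1.12-fold higher in growing cells. The highest mean of the 53 over all 8 arrays was that of SRO9, for an RNA-binding La-motif protein, at 1.86 ± 0.19. Its log2 ratio ran between 2.13 and 2.95 on slide 2 and between 0.85 and 1.83 on slide 1. SRO9 exceeded EFM7 on every slide 2 array, but on slide 1 only on the array recorded at 16 h.

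GCN4 and GCN2, of the amino acid starvation response, were lower in growing cells. GCN4, the transcription activator whose translation is raised when eIF2 is phosphorylated, averaged -0.97 ± 0.05, and GCN2, the eIF2 kinase, -0.43 ± 0.04. GCN20 and GCN1, listed in the same group, were higher in growing cells, at 1.03 ± 0.04 and 0.50 ± 0.06. Of the 14 genes of that group, 10 were higher and 3 lower. NGR1, for an RNA-binding growth regulator, averaged -0.66 ± 0.05. Of 8 mitochondrial factor genes, 2 were higher (RRF1 0.18, GUF1 0.14), 4 were lower, a share near the 42.2% of all genes, and 2 did not pass (IFM1 -0.04, AIM23 0.04). The lower ones were MEF2, a mitochondrial elongation factor, at -1.69 ± 0.06, MEF1 at -0.37 and TUF1 at -0.36, also elongation factors, and the release factor gene MRF1 at -0.24.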

How the data were processed

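The deposited scanner files hold intensity values, the median signal and median local background of each spot in Cy5 and Cy3, written by Agilent Feature Extraction (version 10.5.1.1, per the file headers). A log10 ratio of Cy5 over Cy3 in the deposited files was corrected by the scanner software, which also set flags for saturated, outlying and well measured spots. The authors' deposited table holds log2 values centred on 0 for each gene; the way it was normalised is not given by the labels or headers. No coordinates or sequences are printed: the array design follows the sacCer2 build per the file headers, and the gene table that gave the names follows assembly R64.

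Median signals were used because the files hold no mean signals, which the planned design had named. They were corrected with normexp (offset 50) and normalised within each array by loess in limma 3.58.1 under R 4.3.3, with control spots at weight 0. The Cy5 and Cy3 levels, unlike the ratios, also went through a quantile normalisation of average intensity between arrays. Outlying spots were dropped and both spots of each probe averaged. The filter asked for signal well above background on 4 or more arrays in either channel, and 5650 genes passed it. A line on centred time was fitted per gene: its intercept tests the mean log2 ratio of growing over 64 h cells against 0, and its slope is the change per h, both two-sided with Benjamini-Hochberg adjustment over all genes tested. Genes saturated in a channel on all 8 arrays were left out of the mean ratios, and those saturated in Cy5 on all 8 out of the slopes. Shares of all genes include 65 of 5515 that were never well above background in 1 channel, and no member is among them. Differences between paralogues used an exact two-sided sign-flip permutation test over arrays.

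The 42 members and the other lists were chosen with earlier results of these data known. Any member may be named. Of the other 53 translation genes, the rule was to name the 3 highest and 3 lowest, ANB1, GCN2, GCN4 and the mitochondrial group. LIA1 is named beside DYS1, and GCN1 and GCN20 beside GCN2, outside this rule. Checked on simulated data of 5650 genes, the fits recovered 84 of 100 mean log2 ratios of 0.5 and 92 of 100 slopes of 0.2 per h, against 51 of 100 at 0.25 and 59 of 100 at 0.1 per h. False calls numbered 8 for the mean ratios and 11 for the slopes. The 2 spots of a probe differed in log2 ratio by a median of 0.105 over the 35 measured members, and the number of arrays limits the precision. Alternatives covered the background correction, scaling, filter, saturated spots, slides, single arrays and the authors' table.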

Additional observations from a re-analysis of the deposited data

Results flagged for a closer look

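The array recorded at 20 h stood apart from the other 7 for FUN12 and for some group medians of the factor genes, in each case on the low side. For each gene and group median, the gap between an extreme array and its nearest neighbour was set against the whole range, and compared with Dixon's critical value for 8 arrays. Chance marks about 1 in 20 such groups, and 6 of the 49 tested were marked, of which 1 is the termination median counted under both its phase and its role. The values share arrays and genes and are not independent. The array is 1 of the 2 whose file matches another sample's column of the authors' table; what part that mismatch has in these values was not tested.

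FUN12, the eIF5B gene, had a log2 ratio of growing over 64 h cells of 0.33 on that array, and between 0.47 and 0.53 on the others. The median over the 35 measured factor genes was 0.30, against 0.49 to 0.62 on the others. The median of all genes on that array was -0.02, but the loess scaling holds it near 0 on every array. It therefore cannot show whether the array as a whole stood apart. The initiation genes had a median of 0.30, against 0.48 to 0.62. The termination genes had a median of 0.30, against 0.47 to 0.59. The 6 eIF3 genes had a median of 0.23, against 0.49 to 0.66.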

How the results depend on the processing

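The counts of factor genes higher or lower in growing cells stayed within 1.5 times of 29 and 4 under every alternative run, from 22 higher within slide 2 to 31 with median centring, and 3 to 5 lower. The time results depended on the processing. As recorded, 0 genes rose or fell; exchanging the files of 20 h and 24 h gave 5 falling, and adding slide as a block, an alternative chosen after seeing the data, gave 11 falling and 1 rising. The share of all genes called was not counted for that last fit, so its 11 and 1 have no background beside them. Of the 35 genes, 18 fell and 1 rose in the authors' table. On 6 arrays, where 1 fell and 0 rose, 2 fell with the scanner's ratio, 2 without background subtraction, 0 with no filter on dim probes, 6 within slide 1 and 7 in the authors' table; slide as a block gave 5 falling and 1 rising, and leaving out each array in turn gave 0 to 2 falling. Of these 6-array fits, the main one, slide as a block and the authors' table have shares of all genes above. Shares were not counted for the rest. PAB1 reversed to 0.47 and CAM1 to 0.30 with median centring, and the cause was not tested. Within slide 2, with 3 arrays, the calls of TIF3, EAP1, RPG1, PRT1, TIF34, SUI2, GCD2, EFB1 and SUP45 were lost. Slopes within slide 2 on the 6 arrays could not be run, since 2 arrays leave no residual. Pairing was within an array alone, between its 2 channels or between paralogues. Samples could not be paired with each other because the labels give 1 group. Saturation limits the brightest genes, and the spread of the 64 h cells is not measured.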
